A study of Mus musculus with 4 samples.

Results

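The adaptor and IRAK genes are 10 mouse genes whose products carry the signal of Toll-like receptors from the membrane into the cell: Myd88, Tirap, Ticam1, Ticam2, Irak1, Irak4, Irak2, Irak3, Traf6 and Traf3. They were taken by name from 21900 protein-coding genes of the RefSeq annotation, and every H3K4me3 or H3K9me3 peak that overlapped one of them or lay within 1000 bp of it was collected. Chromatin immunoprecipitation with sequencing (ChIP-seq) had been carried out on peritoneal macrophages of 8-week-old C57BL/6 mice, elicited with thioglycollate broth and kept in culture dishes in medium with serum. The groups were H3K4me3 in Sun-/- cells (here Sun knockout), H3K4me3 in wild-type cells, H3K9me3 in Sun knockout cells and H3K9me3 in wild-type cells, with 1 library each. The labels give no further allele or treatment, no full name for the Sun gene and no number of mice per library. The genotype of each library rests on its label alone.

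Toll-like receptors recognise microbial products, and their cytoplasmic domains bind adaptors that share that domain. MyD88, brought to some receptors by the bridging adaptor TIRAP, assembles the kinases IRAK4, IRAK1 and IRAK2, which act through the ubiquitin ligase TRAF6 on NF-kB. TRIF (gene Ticam1), brought to TLR4 by TRAM (gene Ticam2), acts through TRAF3 on the interferon branch, and IRAK-M (gene Irak3) restrains the pathway. H3K4me3 is found at the promoters of active genes and H3K9me3 in silenced chromatin.

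A tag is a sequenced fragment end kept after removal of duplicates, and the tags of a peak are whole counts made by the authors. The H3K4me3 libraries held 26748289 tags in the Sun knockout and 29681491 in the wild type, and the H3K9me3 libraries 28586946 and 27727997. Each group is 1 library, so differences between genotypes have no replicate check and no p-value was computed. Intervals in parentheses are at 95% and hold only the error of counting tags. In a bulk assay, fewer cells that carry a mark and less of the mark per cell cannot be told apart. Of 12 macrophage marker genes, 11 had H3K4me3 in both genotypes, with 2970 tags summed over the list in the Sun knockout and 4461 in the wild type, and Ctss had it in the wild type alone. For comparison with this and the next counts, 67.3% of 21900 protein-coding genes had H3K4me3 in both genotypes. The share was 1.43% in the Sun knockout alone and 2.93% in the wild type alone. Both genotypes were marked at 3 of 6 B cell markers (473 tags in the Sun knockout, 684 in the wild type; Cd79b, Ms4a1 and Blk at 0) and at 3 of 8 T and NK cell markers (450 tags in the Sun knockout, 575 in the wild type; Cd3e, Cd3g, Cd8a, Ncr1 and Klrb1c at 0). They were marked at 2 of 8 eosinophil and mast cell markers (276 tags in the Sun knockout, 268 in the wild type; Epx, Prg2, Cpa3, Fcer1a, Tpsb2 and Mcpt4 at 0) and at 4 of 9 mesothelial and fibroblast markers (852 tags in the Sun knockout, 1354 in the wild type; Msln and Lum at 0). In that list Upk3b, Krt19 and Col1a2 were marked in the wild type alone, with 101, 33 and 42 tags, which are part of the 1354. No neutrophil marker of 8 had a peak in both, and that list summed to 77 tags in the Sun knockout (S100a8, Camp) and 34 in the wild type (Mpo), with S100a9, Ly6g, Elane, Ltf and Retnlg at 0. The part of such cells in the values below was not tested. Tags outside called peaks are not in the lists, so a gene without a call, such as Ctss in the Sun knockout, is not shown to lack the mark.

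The promoter bases of 4 genes are shown because these genes carry the most tags (Myd88, Traf3) or differ most between genotypes in the bases under a peak (Irak2, Irak3). Each sequence is the stretch before the most upstream listed start, without bases of the gene itself, from RefSeq on GRCm38.p6, the assembly of mm10. Capitals mark matches on either strand to the GC box (GGGCGG), the CCAAT box (CCAAT), the TATA box (TATAAA), AP-1 (TGANTCA), an interferon response core (GAAA, any 2 bases, GAAA), an NF-kB-like pattern (GGG, any 5 bases, CC) and the PU.1 core (GAGGAAG). Myd88 lies at chr9:119340019-119340268 on the minus strand, Traf3 at chr12:111166120-111166320 on the plus strand, Irak2 at chr6:113638217-113638466 on the plus strand and Irak3 at chr10:120202131-120202380 on the minus strand.
Myd88: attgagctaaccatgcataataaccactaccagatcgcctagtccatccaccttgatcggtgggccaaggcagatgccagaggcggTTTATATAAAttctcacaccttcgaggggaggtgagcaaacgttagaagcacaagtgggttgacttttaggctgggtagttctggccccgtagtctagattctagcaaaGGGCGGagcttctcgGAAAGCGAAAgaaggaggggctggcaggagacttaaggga
Traf3: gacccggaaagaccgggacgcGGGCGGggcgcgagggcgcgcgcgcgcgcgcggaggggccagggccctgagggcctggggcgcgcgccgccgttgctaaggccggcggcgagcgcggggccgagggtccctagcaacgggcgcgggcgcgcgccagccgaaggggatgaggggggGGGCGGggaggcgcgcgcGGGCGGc
Irak2: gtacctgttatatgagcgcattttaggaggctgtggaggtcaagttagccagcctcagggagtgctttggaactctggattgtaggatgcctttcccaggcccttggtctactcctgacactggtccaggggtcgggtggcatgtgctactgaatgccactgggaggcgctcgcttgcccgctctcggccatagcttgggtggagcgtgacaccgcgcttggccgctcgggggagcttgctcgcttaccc
Irak3: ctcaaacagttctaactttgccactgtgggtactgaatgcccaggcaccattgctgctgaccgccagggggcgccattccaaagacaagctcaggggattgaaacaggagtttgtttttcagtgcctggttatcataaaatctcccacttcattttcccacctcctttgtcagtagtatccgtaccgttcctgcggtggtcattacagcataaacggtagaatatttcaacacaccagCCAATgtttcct

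The Myd88 stretch holds an interferon response core that begins 40 bases before the start, and 2.98% of 32851 promoter entries hold that pattern in their 250 bases. It also holds a GC box at 55 bases and a pair of overlapping TATA box matches at 164 and 160 bases before the start; TATAAA occurs in 12.4% of entries. The Traf3 stretch has 39 CpG in 201 bases, and the full 250 bases before the Traf3 start have 49 CpG, more than 99.9% of entries, against a median of 6. None of the 7 patterns matches in the Irak2 stretch. Over the 9 members with a promoter entry (Ticam2 is the other), 8 had a GC box, which 32.7% of all entries have (a share of entries, of which these genes have 12; 9 of the 12 hold it), 7 had the NF-kB-like pattern (45.8% of entries; 9 of the 12), 2 had the PU.1 core (10.6%), 2 a CCAAT box (33.8%) and 0 the AP-1 pattern (6.75%). Some matches overlap, such as the GC box and the NF-kB-like pattern of Ticam1, which begin at the same base.

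All 10 genes carried H3K4me3 in both genotypes, at a listed start in 9 and at the higher-coordinate end of Ticam2, for which no start is listed. A peak in both genotypes was called for 10 of 10 genes, against 67.3% of 21900 protein-coding genes, and 0 had a peak in the Sun knockout alone (1.43%), in the wild type alone (2.93%) or in neither (28.4%). The 10 gene windows were touched by 22 Sun knockout peaks, with 2747 tags over their whole length, and by 21 wild-type peaks, with 3626. These sums are not on a like basis at Myd88, where the wild-type peak runs on over the neighbouring gene Acaa1a and a separate Sun knockout peak there is not counted. Peaks covered 29547 bp of the windows in the Sun knockout and 25360 bp in the wild type, and 21204 bp were covered in both, which is 71.8% of the Sun knockout bases and 83.6% of the wild-type bases. The covered bp ratio of 1.17 turned to 0.855 when a peak score of at least 100 was required.

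**Figure D1:**
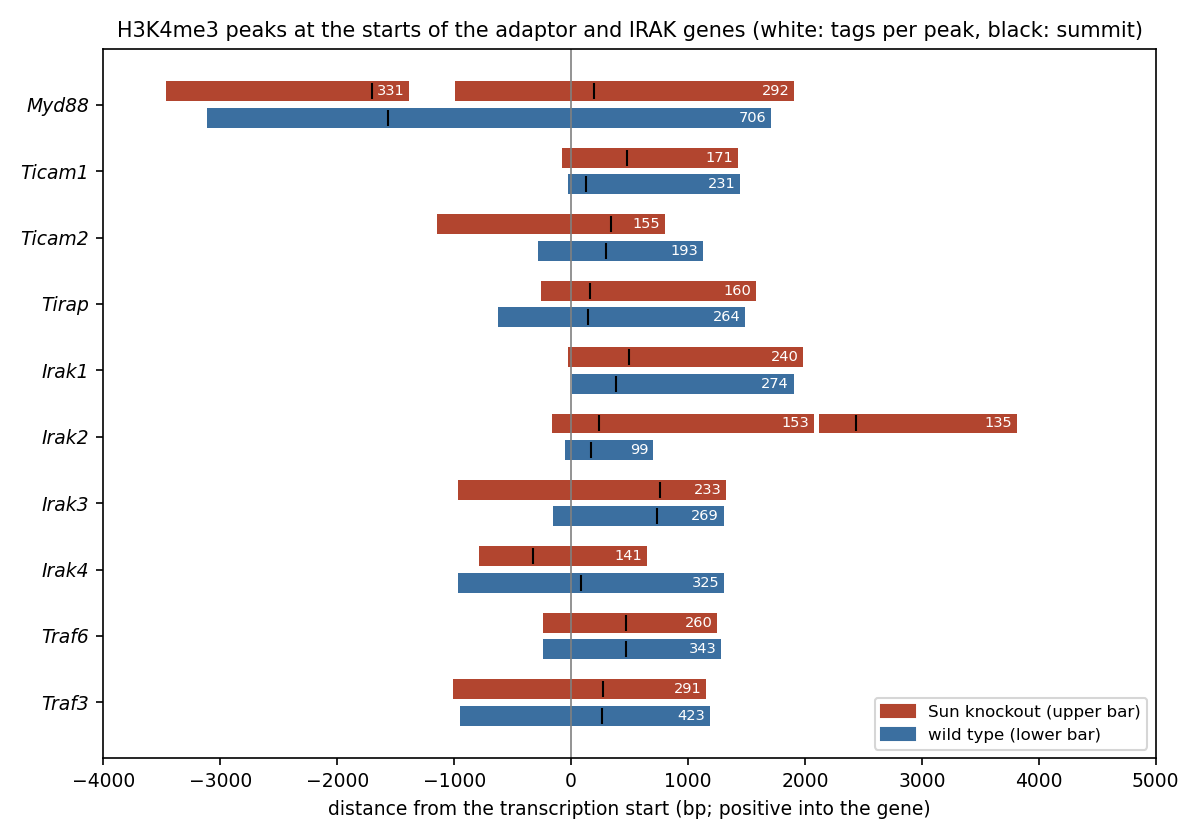
H3K4me3 peaks at the start of each gene, as bars from edge to edge on an axis of bp from the most upstream listed transcription start (for Ticam2, which has no listed start, from its higher-coordinate end), with the tags of each peak in white and its summit as a black stroke. The wild-type peak over Myd88 is met by a pair of Sun knockout peaks. The Irak2 start has a 2239 bp peak in the Sun knockout, followed after 45 bp by a 1693 bp peak, against 757 bp in the wild type.

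To compare peaks that differ in place and width, the peaks of both genotypes were joined into regions wherever they overlapped, and the region with the most tags stood for each gene. For 8 of 10 genes this region held 1 peak per genotype with at least 50% reciprocal overlap, as 90.6% of 18896 H3K4me3 regions did; Myd88 and Irak2 were the exceptions. Ratios are log2 of Sun knockout over wild type, centred on the median of the 18896 regions, and are given for tags per covered kb (density) and for tags alone. Before centring the median region was lower in the Sun knockout, with a log2 ratio of -0.18 in density and -0.34 in tags relative to the filtered library totals. Relative to the totals before filtering these were -0.08 and -0.24. Peaks held 14.0% of the Sun knockout tags and 17.8% of the wild-type tags.

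**Figure D2:**
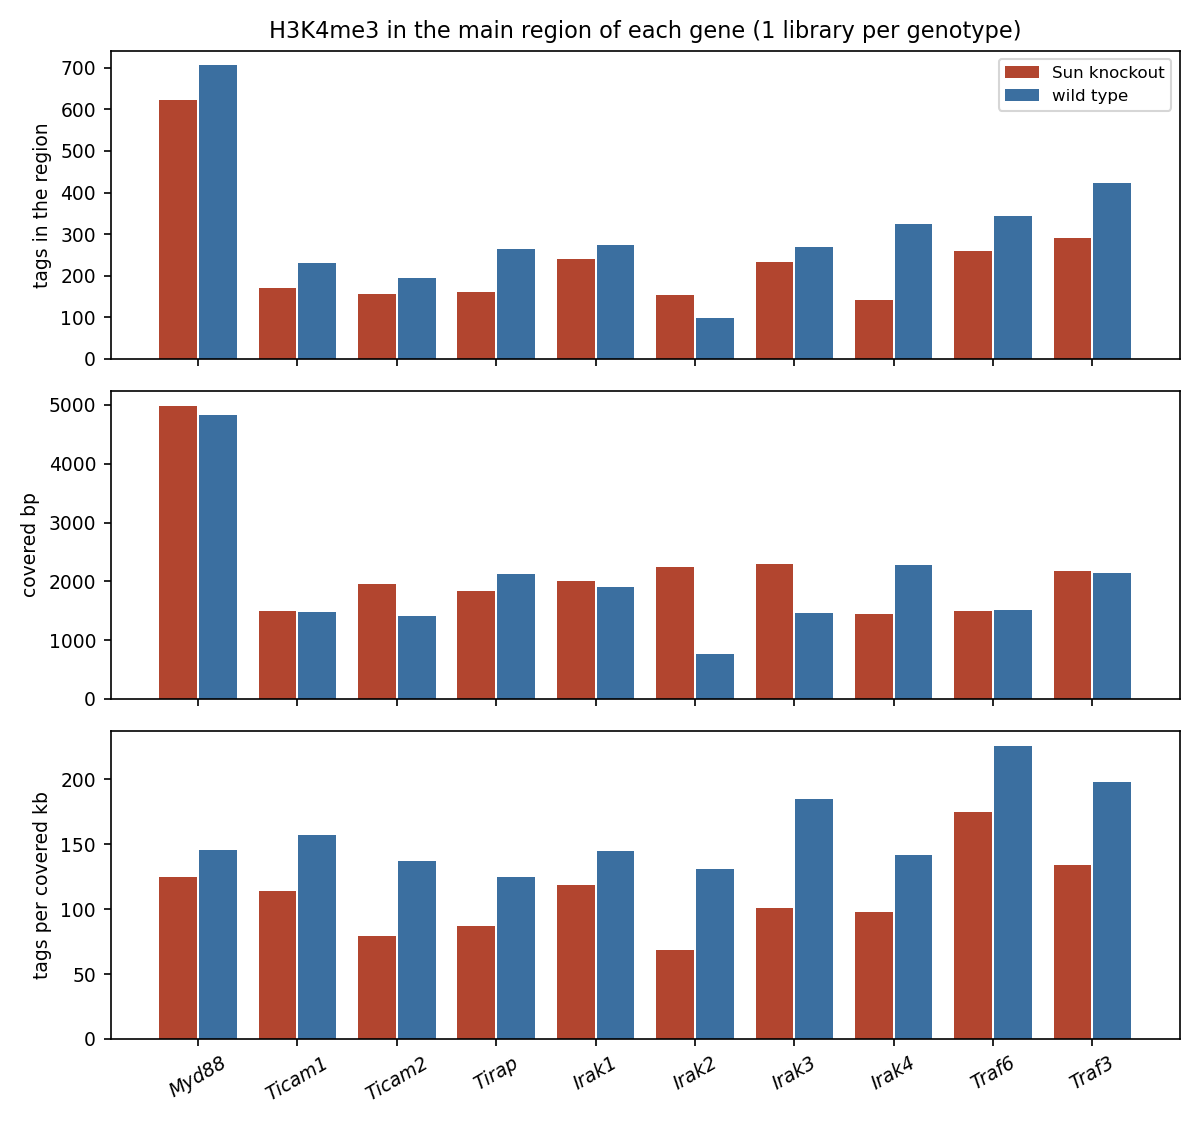
Tags, covered bp and tags per covered kb in the main H3K4me3 region of each gene, not scaled for library size, with the Sun knockout bar left of the wild-type bar. Unscaled density is lower in the Sun knockout for all 10 genes, as for 89.8% of all regions, while 7 of 10 regions cover more bp in the Sun knockout.

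Unscaled density was lower in the Sun knockout for 10 of 10 genes, as it was for 89.8% of all regions, whose median unscaled log2 ratio was -0.33, with 68.3 to 175 tags per kb in the Sun knockout and 125 to 226 in the wild type. Relative to the median region, 8 of 10 density ratios were below 0, against 50% of all regions, with a median of -0.20 and a range of -0.60 to 0.10. The counting interval lay below 0 for Irak2, Irak3, Ticam2 and Traf3, that is 4 of 10, against 7.53% of regions, and above 0 for 0 of 10, against 9.34%. Intervals are narrower where tags are many, so these shares and those by tags are not on a like basis. The gene regions, each chosen for most tags, held 99 to 706 wild-type tags. The median over all 31398 wild-type peaks, which include peaks outside the compared regions, was 89. By tags alone most ratios were above 0: 3 of 10 ratios were below 0, the median was 0.13, and the interval lay above 0 for 4 genes (15.3% of regions) and below 0 for 1 (11.7%). The regions of 7 genes were wider in the Sun knockout, against 31.5% of all regions, although for Myd88, Ticam1, Irak1 and Traf3 the width ratio was only 1.01 to 1.06. At least 1.5 times wider were 2 of 10 (3.01% of regions), at least 1.5 times narrower 1 of 10 (11.7%). No gene reached a 2-fold density difference, a size that 0.0688% of regions reached upwards and 0.0212% downwards. By tags 1 gene, Irak2, was at least 2-fold higher, as were 2.21% of regions, and 0 were at least 2-fold lower (0.937%).

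**Figure D3:**
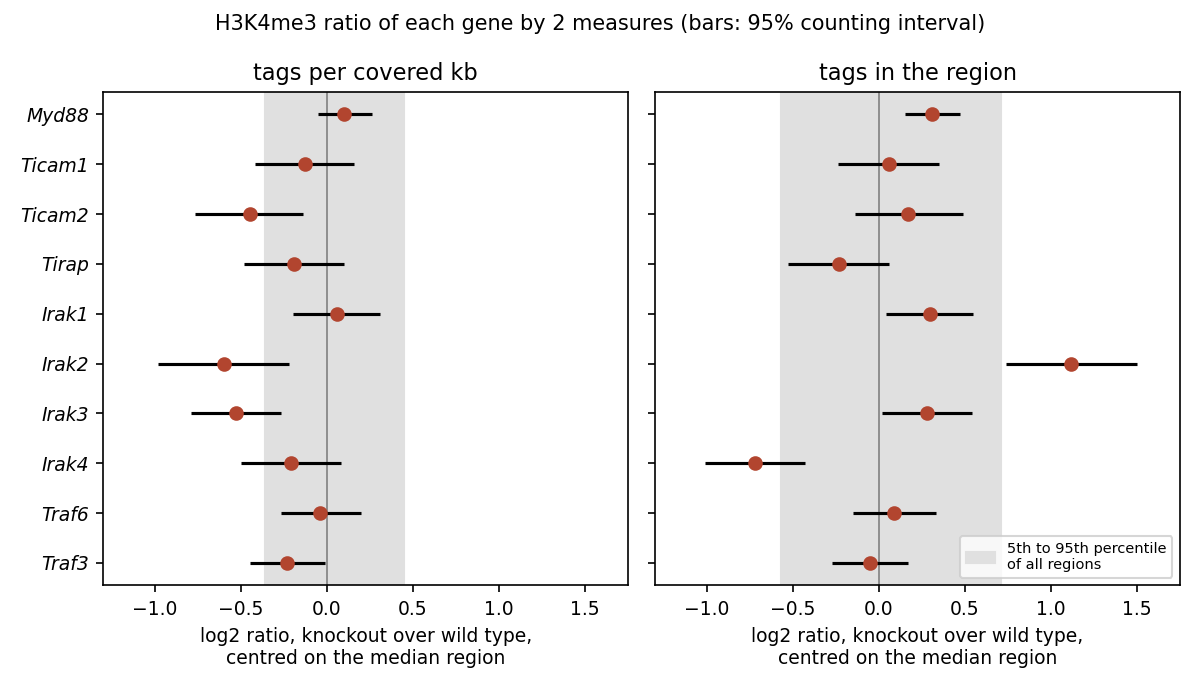
Centred log2 ratio of Sun knockout over wild type for each gene, by tags per covered kb on the left and by tags in the region on the right, with 95% counting intervals as bars and the 5th to 95th percentile of all 18896 regions in grey (-0.36 to 0.45 for density, -0.57 to 0.71 for tags). Irak2, Irak3 and Ticam2 lie below the grey range on the left, and on the right Irak2 lies above it and Irak4 below it.

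Among the adaptors, Myd88 encodes the adaptor used by nearly all Toll-like receptors and by the interleukin 1 receptor family. It lies on chromosome 9 from 119335934 to 119340018, and its neighbour Acaa1a, a peroxisomal thiolase gene, has its listed start 1276 bp away on the other strand. In the Sun knockout, a peak of 2903 bp over the Myd88 start (119338108 to 119341010) held 292 tags and a separate peak of 2087 bp over Acaa1a (119341401 to 119343487) held 331. In the wild type, a single peak of 4826 bp (119338306 to 119343131) held 706 tags. Among all regions 3.08% held more peaks in the Sun knockout, as Myd88 did, and 1.64% more in the wild type. The gap between the Sun knockout peaks was 390 bp, and the Acaa1a peak begins 1383 bp beyond the Myd88 gene, outside its window. The peaks that touch the Myd88 window thus held 292 tags in the Sun knockout and 706 in the wild type, but only 2713 of the 4826 bp of the wild-type peak lie in that window. Over the whole joined stretch the counts were 623 in the Sun knockout and 706 in the wild type. Over that stretch 4990 bp were covered in the Sun knockout and 4826 bp in the wild type, the density ratio was 0.10 (-0.05 to 0.26) and the tag ratio 0.31 (0.15 to 0.47). The Sun knockout summits lay 196 bp inside Myd88 and, for the peak over Acaa1a, 1703 bp before the Myd88 start, and the single wild-type summit lay 1567 bp before it. The wild-type summit was thus over Acaa1a, as was that of the higher-scoring Sun knockout peak, so the wild-type tags cannot be divided between the genes. The Sun knockout peak at Myd88 had a score (10 times the negative log10 of the caller's p-value, the authors' own value) of 50.51, just above the calling limit of 50, while the Acaa1a peak had 326.84 and the joint wild-type peak 418.16.

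Tirap encodes the adaptor that brings MyD88 to TLR2 and TLR4. Its start peak (chromosome 9, 35198381 to 35200222 in the Sun knockout) held 160 tags over 1842 bp in the Sun knockout and 264 tags over 2116 bp in the wild type, with a density ratio of -0.19 (-0.48 to 0.10) and a tag ratio of -0.23 (-0.53 to 0.06). Both intervals include 0. The Sun knockout list alone had 2 more Tirap peaks, of 28 tags inside the gene and of 19 tags just beyond its far end; the fewest tags of any peak in that list are 17.

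Ticam1 encodes TRIF, the adaptor of TLR3 and of the interferon branch of TLR4. The peak (chromosome 17, 56275344 to 56276842 in the Sun knockout) held 171 tags over 1499 bp in the Sun knockout and 231 tags over 1471 bp in the wild type, at a density ratio of -0.13 (-0.42 to 0.16). Almost the whole interval was shared, with 96.6% reciprocal overlap.

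Ticam2 encodes TRAM, which links TRIF to TLR4. It had 155 tags over 1950 bp in the Sun knockout and 193 tags over 1409 bp in the wild type, on chromosome 18 (46573729 to 46575678 in the Sun knockout). The Sun knockout peak reached 1145 bp beyond the higher-coordinate end of the gene and the wild-type peak 280 bp. Its width ratio of 1.38 exceeded that of 95.6% of regions. The density ratio was -0.45 (-0.77 to -0.14), above 2.26% of regions, but the tag ratio was 0.17 (-0.14 to 0.49), so the low density went with the wider call and not with fewer tags than at the median region.

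Among the kinases, Irak4 and Irak1 encode the proteins that first join MyD88. Irak4 (chromosome 15) starts beside Pus7l, a pseudouridine synthase gene, within the same peak. This region held 141 tags over 1438 bp in the Sun knockout and 325 tags over 2281 bp in the wild type. It was the lowest tag ratio of the 10, -0.72 (-1.01 to -0.43), above 2.86% of regions, while the density ratio was -0.21 (-0.50 to 0.08). The wild-type peak reached 1309 bp into Irak4 and the Sun knockout peak 646 bp. On the side of Pus7l the edges lay 791 bp before the start in the Sun knockout and 971 bp in the wild type, and the summit lay 329 bp before the Irak4 start in the Sun knockout and 84 bp inside the gene in the wild type.

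Irak1 is on the X chromosome, and its peak (74021938 to 74023950 in the Sun knockout) lies within 1000 bp of the microRNA genes Mir5132 and Mir718. It held 240 tags over 2013 bp in the Sun knockout and 274 tags over 1896 bp in the wild type. The density ratio was 0.06 (-0.20 to 0.31) and the tag ratio 0.30 (0.04 to 0.55).

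Irak2, which encodes a kinase-like partner of MyD88 that sustains the response, was the gene whose marked bases differed most. At its start (chromosome 6), the Sun knockout had a peak of 153 tags over 2239 bp (113638303 to 113640541) and the wild type a peak of 99 tags over 757 bp (113638412 to 113639168). A further Sun knockout peak of 135 tags over 1693 bp followed after a gap of 45 bp and had no wild-type counterpart. The peaks began 164 bp before the start in the Sun knockout and 55 bp in the wild type, so 164 and 55 of the 250 promoter bases printed above were covered. Downstream they ended 3812 bp into the gene in the Sun knockout and 701 bp in the wild type.

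The overlapping pair of Irak2 start peaks had a tag ratio of 1.12 (0.74 to 1.5), above 98.5% of regions, and a width ratio of 2.96, above 99.9%. Its density ratio was -0.60 (-0.98 to -0.22), the lowest of the 10, so the direction depended on the measure. With the adjoining peak added, 288 tags over 3932 bp were called at and just beyond the start in the Sun knockout and 99 tags over 757 bp in the wild type. Wild-type tags outside the called 757 bp are not in the list, so no ratio is given for this sum. The same limit holds for the tag ratio of 1.12, which sets tags over 2239 bp against tags over 757 bp. Its interval does not hold that error. The caller's scores were low for the Sun knockout start peak and the peak adjoining it, 78.21 and 68.51, against 226.99 for the shorter wild-type peak. With a score of at least 100 required, no Sun knockout peak remained at the Irak2 start.

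Irak2 also carried H3K4me3 inside the gene, where the annotation used here does not tell exons from introns. The first site (Sun knockout summit 22541 bp from the start) held 83 tags in the Sun knockout and 61 in the wild type. The next (31387 bp) held 114 in the Sun knockout and 83 in the wild type, and the last (52325 bp) 69 in the Sun knockout and 70 in the wild type. Unlike the start, these 3 sites had density ratios above 0, at 0.49, 0.60 (0.18 to 1.03) and 0.40 (-0.10 to 0.90), and tag ratios of 0.93, 0.95 and 0.47. The interval of the density ratio at the first of these sites ran from just below 0 to 0.99. Another site, with 53 tags and its summit 37096 bp from the start, was called in the wild type alone. Over its whole window Irak2 had 5 H3K4me3 peaks in each genotype, with 554 tags in the Sun knockout and 366 in the wild type, and it alone of the 10 genes had more unscaled tags in the Sun knockout, at its start and over its window.

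Irak3 encodes IRAK-M, an inhibitor of the pathway found mostly in monocytes and macrophages. Its start peak (chromosome 10) held 233 tags over 2300 bp in the Sun knockout (120200802 to 120203101) and 269 tags over 1457 bp in the wild type (120200825 to 120202281). The edges inside the gene lay 23 bp apart. On the upstream side the Sun knockout peak reached 971 bp before the start and the wild-type peak 151 bp, so 250 of the 250 promoter bases printed above were covered in the Sun knockout and 151 in the wild type. This start is the more upstream of 2 listed. The other, at 120201597, has 19 CpG in its 250 promoter bases against 6 in the printed stretch. Both summits (120201371 in the Sun knockout, 120201397 in the wild type) lay inside the gene from that other start. The density ratio was -0.53 (-0.79 to -0.27), above 1.05% of regions, and the tag ratio 0.28 (0.02 to 0.54), again with opposite signs. Inside the gene a site of 61 tags was called in the Sun knockout alone, a site of 36 tags in the wild type alone, and a site with 32 tags in the Sun knockout and 38 in the wild type in both.

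Downstream of the kinases, Traf6 encodes the ubiquitin ligase of the MyD88 branch and had the densest peak of the set in both genotypes. It held 260 tags over 1488 bp in the Sun knockout, or 175 tags per kb (154 to 197), and 343 tags over 1519 bp in the wild type, or 226 tags per kb (203 to 251). Both peaks began at the same base (chromosome 2, 101678182) and their summits lay 4 bp apart. The density ratio was -0.04 (-0.27 to 0.20). A weak site (Sun knockout summit 20560 bp into the gene) held 20 tags in the Sun knockout and 41 in the wild type.

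Traf3, whose product serves the TRIF branch and restrains alternative NF-kB signalling, came next in density, with 134 tags per kb in the Sun knockout (119 to 151) and 198 in the wild type (179 to 218). Its peak (chromosome 12, 111165357 to 111167523 in the Sun knockout), which also lies within the noncoding gene 4930595D18Rik (111159850 to 111184491), held 291 tags in the Sun knockout and 423 in the wild type. The density ratio was -0.23 (-0.45 to -0.01), the tag ratio -0.05 (-0.27 to 0.17) and the width ratio 1.01. The Traf6 interval did not overlap that of Traf3 in the Sun knockout and overlapped it in the wild type. That of Traf3 overlapped Myd88 (115 to 135) in the Sun knockout and Irak3 (185 tags per kb, 163 to 208) in the wild type. Further down, Myd88 (125), Irak1 (119) and Ticam1 (114 tags per kb) in the Sun knockout had overlapping intervals, as did Ticam1 (157), Myd88 (146), Irak1 (145), Irak4 (142), Ticam2 (137) and Irak2 (131 tags per kb) in the wild type.

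Inside Traf3, sites of 34 and 31 tags in the Sun knockout had counterparts of 40 and 40 tags in the wild type, while a site of 25 tags was called in the Sun knockout alone and sites of 20 and 17 tags in the wild type alone. Across the set, 12 Sun knockout and 11 wild-type peaks lay more than 1000 bp away from a start, in Tirap, Irak2, Irak3, Traf6 and Traf3. They held 19 to 135 tags in the Sun knockout and 17 to 83 in the wild type. The 135 tags are those of the peak that adjoins the Irak2 start peak and begins 2120 bp inside the gene. The next most in the Sun knockout were 114. Of all peaks in the windows, 5 in the Sun knockout and 4 in the wild type had no counterpart. They held 19 to 135 tags in the Sun knockout and 17 to 53 in the wild type. Peaks without a counterpart were common over the whole lists, where 22220 of 36671 H3K4me3 regions held peaks of both genotypes.

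**Figure D4:**
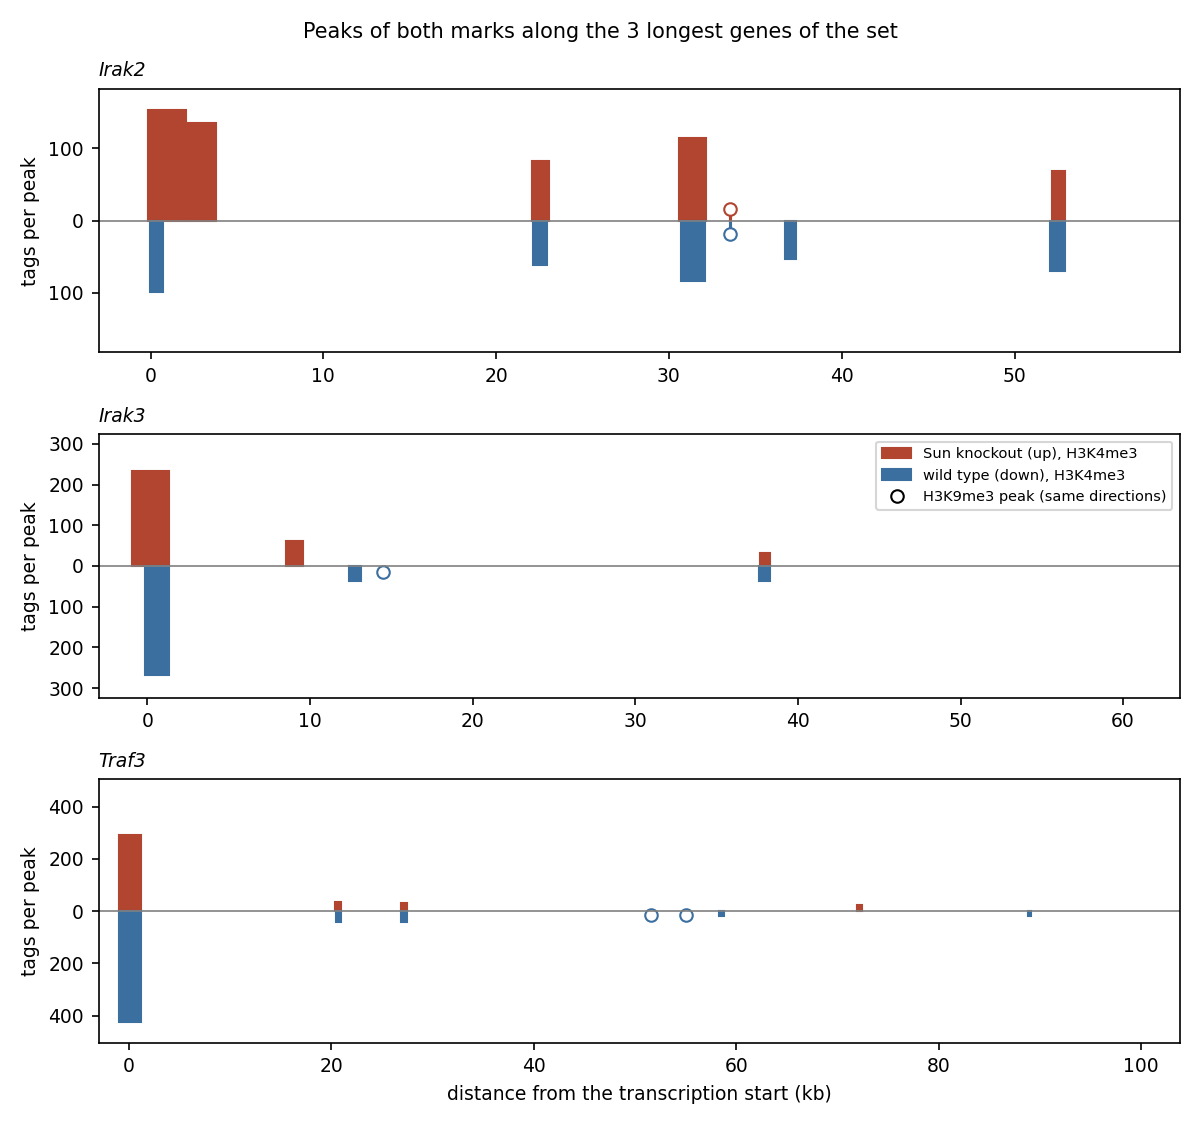
Peaks along Irak2, Irak3 and Traf3 by distance from the transcription start in kb, with tags per peak upwards for the Sun knockout and downwards for the wild type; filled bars are H3K4me3 and open circles H3K9me3. H3K9me3 circles stay at 14 to 19 tags, in both genotypes only in Irak2.

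H3K9me3 was called at 3 of the 10 genes, by weak peaks. It was called in both genotypes in Irak2 alone, 1 of 10 genes against 16.9% of protein-coding genes, in the Sun knockout alone in 0 (11.2%) and in the wild type alone in 2, Irak3 and Traf3 (8.73%). The other 7 had no H3K9me3 peak in either genotype, a share near that of all protein-coding genes (63.2%). Over the whole lists, H3K9me3 peaks held only 1.62% of the Sun knockout tags and 1.69% of the wild-type tags. Of 30211 H3K9me3 regions, 6035 were called in both genotypes. A missing H3K9me3 call is therefore not shown to be a missing mark. The Irak2 peak, with its summit 33535 bp from the start in the Sun knockout, held 16 tags in the Sun knockout (113671943 to 113672166) and 19 in the wild type (113671873 to 113672179), with a density ratio of 0.16 (-0.90 to 1.20). Irak3 had a wild-type peak of 14 tags and Traf3 wild-type peaks of 15 and 15 tags. The scores of these peaks were 51.65 to 70.94, near the calling limit of 50, and the fewest tags of any peak were 12 in the Sun knockout list and 11 in the wild-type list. None overlapped an H3K4me3 peak of either genotype; the gaps were 1240 to 20258 bp. The 3 genes are those of at least 50000 bp: 3 of 3 such members had an H3K9me3 peak in either genotype, against 70.8% of protein-coding genes of that length, and 0 of the other 7, against 26.9% of shorter genes. Beyond the Myd88 window, an H3K9me3 peak of 47 tags over 563 bp with a score of 159.74 was called in the Sun knockout alone, at 119341492 to 119342054, inside the H3K4me3 peak over Acaa1a.

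Other genes of the pathway were taken by list. Of 15 Toll-like receptor and co-receptor genes, 12 had H3K4me3 in both genotypes (67.3% of protein-coding genes). Tlr13 had it in the wild type alone (2.93%), with 48 tags. The 11 genes with a ratio had a median density ratio of -0.14, from -0.34 (-0.73 to 0.05) at Ly96, the TLR4 co-receptor gene, to 0.16 (-0.17 to 0.49) at Tlr5, the flagellin receptor gene. All 17 genes of kinases, ubiquitin enzymes and their partner proteins (such as Tab1, Ikbkg and Tank) below the adaptors were marked in both. Their median was -0.05, from -0.34 at Peli3 to 0.65 (0.43 to 0.86) at Ube2n, the ubiquitin-conjugating enzyme gene that works with TRAF6. Ube2n held 290 tags over 1275 bp in the Sun knockout and 521 tags over 2847 bp in the wild type, a tag ratio of -0.36 (-0.57 to -0.15). The signs of its 2 measures were the reverse of those of Irak2. H3K9me3 was called in both genotypes at 5 of these 17 genes (16.9% of protein-coding genes). It was called in the Sun knockout alone at 4 (11.2%) and in the wild type alone at 2 (8.73%). The 5 genes were Tab2, Ikbkb, Ripk1, Ube2v1 and Peli1. Their main H3K9me3 regions held 12 to 35 tags per genotype and lay inside their main H3K4me3 regions. What these calls reflect was not tested.

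Of 15 inhibitor genes, 14 were marked in both genotypes (67.3% of protein-coding genes). Zc3h12a, an RNase gene, was marked in the wild type alone (2.93%), by a wide peak of 1201 tags over 7093 bp. Sun knockout tags at Zc3h12a are not in the list without a call, and a wide domain enters its own background. A loss of the mark there is therefore not shown. The 13 inhibitor genes with a ratio had a median of -0.01, from -0.47 at Inpp5d, a lipid phosphatase gene, to 0.73 (0.09 to 1.38) at Il1rl1, with 56 tags in the Sun knockout and 35 in the wild type. By tags, 2 of them were at least 2-fold higher (2.21% of regions), Il1rl1 at 1.17 and Tnip1, a partner of A20, at 1.12 (0.89 to 1.34). Tnip1 held 429 tags in the Sun knockout and 278 in the wild type and was named after its value was seen. Of 15 genes of the pathway's transcription factors and IkB family (Nfkbia, Nfkbib, Nfkbie and Nfkbiz), 14 were marked in both. Their median was -0.22, from -0.44 (-0.68 to -0.21) at Relb to 0.72 (0.51 to 0.93) at Irf7. The other 5 TRAF genes were all marked in both, with a median of -0.13, from -0.26 at Traf2 to 0.02 at Traf1. The medians by tags were -0.06, -0.09, 0.07, -0.12 and 0.35 in the order of the lists above. In density, 0 genes of the 5 lists were at least 2-fold different (0.0688% of regions upwards, 0.0212% downwards). By tags, 1 Toll-like receptor gene was at least 2-fold lower (0.937% of regions), Tlr3 at -1.19 (-1.79 to -0.62). Tlr3 held 34 tags in the Sun knockout and 109 in the wild type, and it too was named after its value was seen. By definition the median of all regions is 0. H3K9me3 was called in both genotypes at 0 of 15 Toll-like receptor genes and 3 of 15 inhibitor genes. For the 15 transcription factor and IkB genes this count was 5, and for the 5 other TRAF genes 1. In the same order, it was called in the Sun knockout alone at 2, 2, 2 and 1 genes and in the wild type alone at 2, 2, 1 and 0. Over all protein-coding genes the H3K9me3 shares were 16.9% in both genotypes, 11.2% in the Sun knockout alone and 8.73% in the wild type alone.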

How the data were processed

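H3K4me3 and H3K9me3 ChIP-seq libraries of Sun knockout and wild-type macrophages were compared, 1 per mark and genotype. CASAVA 1.4, Bowtie 0.12.8, MACS 1.4.2, DiffBind and the build mm10 are named in the submitters' processing notes, which give them no roles. The authors called peaks with MACS 1.4.2 without a control library, at a p-value limit of 1e-05, with at most 1 tag per position and a background from up to 10000 bp around each peak, per the file headers. A wide domain therefore enters its own background. Each deposited peak has a width, a summit, a tag count, a fold enrichment (a ratio, not used here) and a score, which is 10 times the negative log10 of a p-value.

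Peaks were matched to genes of the RefSeq table of GRCm38.p6 (21900 protein-coding genes), which gives no exons; starts came from the promoter table. Peaks of both genotypes overlapping by at least 1 bp were joined into regions. Regions with at least 50 tags in 1 library were used for centring. Ratio intervals are exact conditional binomial and level intervals exact Poisson. The work used scipy 1.17.1, pandas 2.3.3 and numpy 2.4.6 under Python 3.11.15, with matplotlib 3.10.9 for plots, and the computation was checked on simulated data. The simulated knockout list kept the wild-type peak positions and changed only the tags. Peaks that are split or differ in width were therefore not part of that check. The members, lists and rules were chosen with earlier results of these data known. The named genes were the 10 members, the highest and lowest density ratio of each list and genes marked in 1 genotype alone, and any other is said to have been named after its value was seen. Alternatives were windows of 500 and 2500 bp, a score of at least 100, peaks with at least 50% inside the window, other scalings, tags without width, joining within 1000 bp, minimums of 20 and 100 tags and reciprocal overlaps of 20% and 80%. An unplanned alternative took only those peaks of a region that touch the gene window. A marker gene of the lists is not reported here and was left out of its counts.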

Additional observations from a re-analysis of the deposited data

How the results depend on the processing

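Without division by width the median ratio of the 10 genes changed sign, at 0.13 in place of -0.20, Ticam2, Irak2 and Irak3 turned to 0.17, 1.12 and 0.28, and 1 gene in place of 0 was at least 2-fold different; all 3 have wider peaks in the Sun knockout. With a score of at least 100, Irak2 turned to 0.42 because its Sun knockout start peak and the peak adjoining it were removed. A site inside the gene took their place. Myd88 moved to 0.46, since of its Sun knockout peaks only the one over Acaa1a remained. This left 9 genes marked in both genotypes and 1, Myd88, in the wild type only. At that score H3K9me3 was left at 0 genes in both genotypes and 0 in the wild type alone. A window of 2500 bp added 1 gene with H3K9me3 in the Sun knockout alone, Myd88. With 80% reciprocal overlap 5 regions in place of 8 were paired. Scaling to filtered tags, which shifts all regions by the same amount, put 10 of 10 density ratios below 0 (-0.79 to -0.08), against 76.9% of all regions, and scaling to all tags 9, against 63.5%. The covered bp ratio of Sun knockout over wild type was 1.17, and 0.855 with a score of at least 100. Joining within 1000 bp and minimums of 20 or 100 tags kept 8 of 10 density ratios below 0. With only the peaks that touch the gene window, Myd88 moved to -0.21 and 9 of 10 were below 0 (-0.6 to 0.06). The wild-type Myd88 peak then still held its tags over Acaa1a, so that Myd88 value is not on a like basis. No paired analysis was possible because each group has 1 library. The H3K9me3 peaks here hold 14 to 19 tags and many sites inside genes under 50, so their counting intervals are wide; depth itself was not varied.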
